A study of Zea mays with 8 samples.

Results

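Gene expression in the aleurone of maize kernels was compared at 22 and 18 days after pollination (DAP), with 2 RNA-seq libraries at each age, replicates 1 and 2. These are 4 of 8 libraries, of which the other 4 came from the starchy endosperm of the same ages. All samples were of the inbred line B73, with no mutation or treatment. Plants grew in a greenhouse, kernels came from replicate plants and were kept frozen, and the aleurone was peeled off mechanically after thawing and rinsed in water. The labels do not say how many kernels or plants went into a library, and RNA integrity was measured in 1 library of each pair.

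The aleurone is the outermost cell layer of the endosperm and stays alive in the mature grain while the starchy endosperm beneath it dies. During grain filling its cells store oil, globulins, minerals as phytate and, in coloured lines, anthocyanin. They then acquire tolerance to drying under abscisic acid, and at germination they secrete the enzymes that digest the starchy endosperm. Zeins, the prolamin storage proteins of maize, are made mostly in the starchy endosperm.

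The aleurone libraries held 3074139 and 7001775 estimated counts at 22 DAP and 2944720 and 5991340 at 18 DAP (replicates 1 and 2). Counts above 0 were seen for 23154 and 20134 of 39475 genes at 22 DAP and for 22786 and 20663 at 18 DAP, so the deeper replicate 2 detected fewer genes at both ages. One starchy endosperm library, replicate 2 at 22 DAP, stood apart with 9335 genes detected, against 14186 to 18172 in the other 3. The 12 aleurone markers found by name, 1 of them at 0 in every aleurone library, summed to 10450 and 27697 TPM at 22 DAP and 18317 and 35588 TPM at 18 DAP, against 64.0 to 106 TPM in the starchy endosperm libraries. TPM measures the share of a library's transcripts that come from a gene, corrected for gene length and scaled to a fixed total. The aleurone label was thus borne out by its markers, but the peels also held zein transcripts. The 26 zein genes found by name took 14.1% and 14.7% of TPM at 22 DAP and 11.7% and 12% at 18 DAP, against 59.1% to 62.8% in starchy endosperm. Any zein gene without a matched name is not in these shares. Basal transfer layer markers summed to at most 20.3 TPM in an aleurone library, with 12 of 17 at 0 in all 4, and of 4 embryo-surrounding region genes 3 were at 0 in all 4 and the fourth reached 0.59 TPM.

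**Figure D1:**
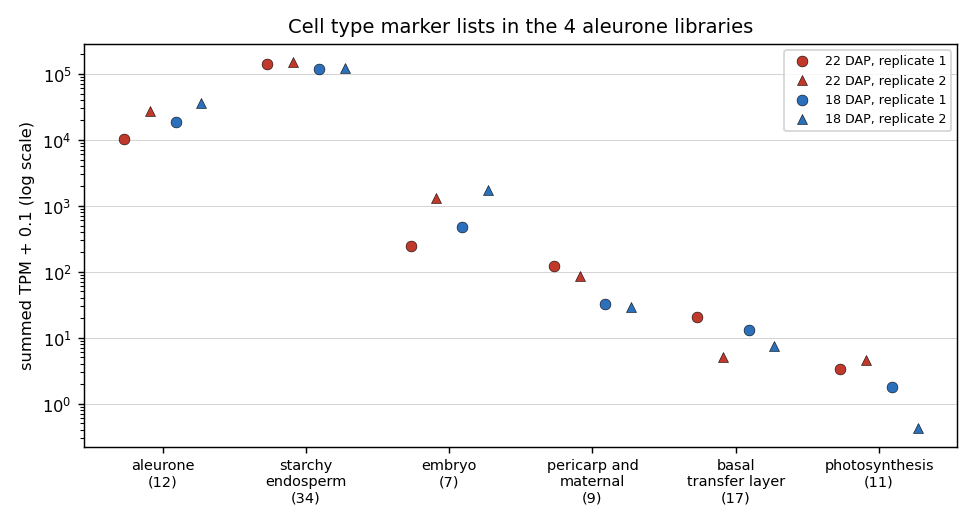
Summed TPM (log scale, 0.1 added) of cell type marker lists in the 4 aleurone libraries, with the number of genes in each list in brackets; red points are 22 DAP and blue points 18 DAP, circles replicate 1 and triangles replicate 2. Pericarp and maternal markers lie at 121 and 86.8 TPM at 22 DAP, above 32.2 and 29.3 TPM at 18 DAP, while aleurone and embryo markers separate by replicate as much as by age.

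The summed markers listed for the maternal pericarp, which adheres to the aleurone, moved with age. Of 9 such genes, all regulators of flower parts or of pericarp colour, 1 was at 0 in all 4 libraries, the pericarp colour gene P. Their sum was 121 and 86.8 TPM at 22 DAP and 32.2 and 29.3 TPM at 18 DAP. Much of it came from flower regulators of the MADS-box family. Mean TPM at 22 and 18 DAP was 17.6 and 3.65 for AGAMOUS, 13 and 0.47 for bde1, and 19.4 and 6.34 for MADS37. A higher sum is thus not a measure of pericarp alone. The 5 of them that could be tested were all higher at 22 DAP in both replicate numbers, with a median log2 fold change of 1.96, and none passed the test. Over all tested genes 29.8% were higher in both replicate numbers. The starchy endosperm markers moved as well, at 142823 and 149779 TPM at 22 DAP and 118940 and 121886 TPM at 18 DAP over 34 genes, mostly zeins. The 8 of them that are not zeins summed to 1842 and 2334 TPM at 22 DAP and 1764 and 2038 TPM at 18 DAP, higher at 22 DAP within each replicate though the ages overlap. The part of these tissues in the differences below was not tested. In bulk RNA, fewer cells of a type and less RNA per cell cannot be told apart.

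Replicates of one age differed by about as much as the ages did. The median absolute log2 difference between replicates 2 and 1, over 19058 genes tested, was 0.695 at 22 DAP and 0.6 at 18 DAP. Between 22 and 18 DAP it was 0.377 within replicate 1 and 0.667 within replicate 2. Over the 1985 genes above a mean of 50 TMM-scaled CPM (counts scaled to library size) the values were 0.432 and 0.363 between replicates at 22 and 18 DAP, and 0.268 and 0.333 between ages. The age changes of the 2 replicate numbers shared their direction in 61.7% of genes, and in 72.8% of the more abundant ones. Across genes, which are not independent, these changes had a Pearson r of 0.373, and 0.723 among the more abundant ones. The differences between replicates correlated more closely between 22 and 18 DAP, with an r of 0.425, and 0.887 among the more abundant genes. 

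**Figure D2:**
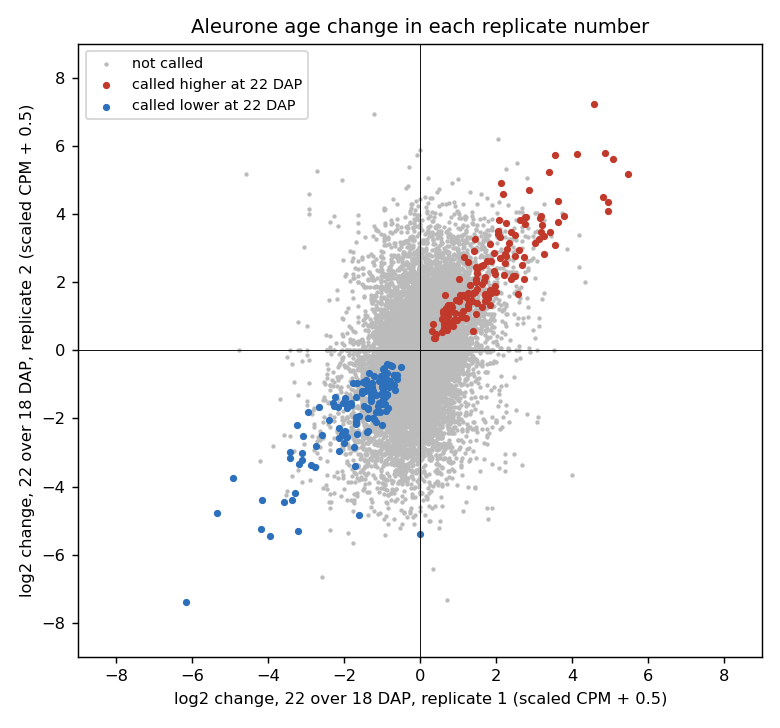
Log2 change of each tested gene from 18 to 22 DAP in aleurone, replicate 1 on the x axis and replicate 2 on the y axis, with positive values higher at 22 DAP. Grey points are the 18768 of 19058 tested genes that were not called. Coloured points are the 147 higher and 143 lower calls of the fit of the 4 aleurone libraries, which lie in the upper right and lower left, apart from 1 lower call with no count in either library of replicate 1.

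No gene passed an adjusted p of 0.05 when all 8 libraries were fitted together with edgeR's quasi-likelihood test and the replicate number as a block (0 of 19058, 0%). Of these genes 316 had an unadjusted p under 0.05, and the smallest adjusted p was 0.488. In the same 8 libraries DESeq2 called 9 genes and limma-voom 35. When the 4 aleurone libraries were fitted alone with the block, edgeR called 290 genes (1.52%), of which 147 were higher (0.771%) and 143 lower (0.75%) at 22 DAP. All 35 limma-voom calls were among these 290, and so were 7 of the 9 DESeq2 calls. All these fits share the aleurone counts, so the overlap is no independent support. The aleurone fit leaves 1 residual degree of freedom for each gene, and without the block it called none, with 788 genes at an unadjusted p under 0.05. Below, a gene is said to have risen or fallen at 22 DAP where it passed in the fit of the 4 aleurone libraries, from which the log2 fold changes, standard errors (SE) and adjusted p-values also come, and these p-values measure the spread between these libraries only.

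Of the 147 that rose, 117 did so at least 2-fold, with a median absolute log2 fold change of 1.85, and TPM did not overlap between the ages in 127, against 2181 of all tested genes that were higher without overlap (11.4%). Of the 143 that fell, 110 did so at least 2-fold, with a median of 1.35, and TPM did not overlap in 126, against 3533 of all tested genes that were lower without overlap (18.5%). These genes were called by the same values, so the separation is a description. Without regard to a test, 684 genes (3.59%) were at least 2-fold higher and 728 (3.82%) at least 2-fold lower at 22 DAP in both replicate numbers. A name was known for 47 of the genes that rose and for 16 of those that fell.

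**Figure D3:**
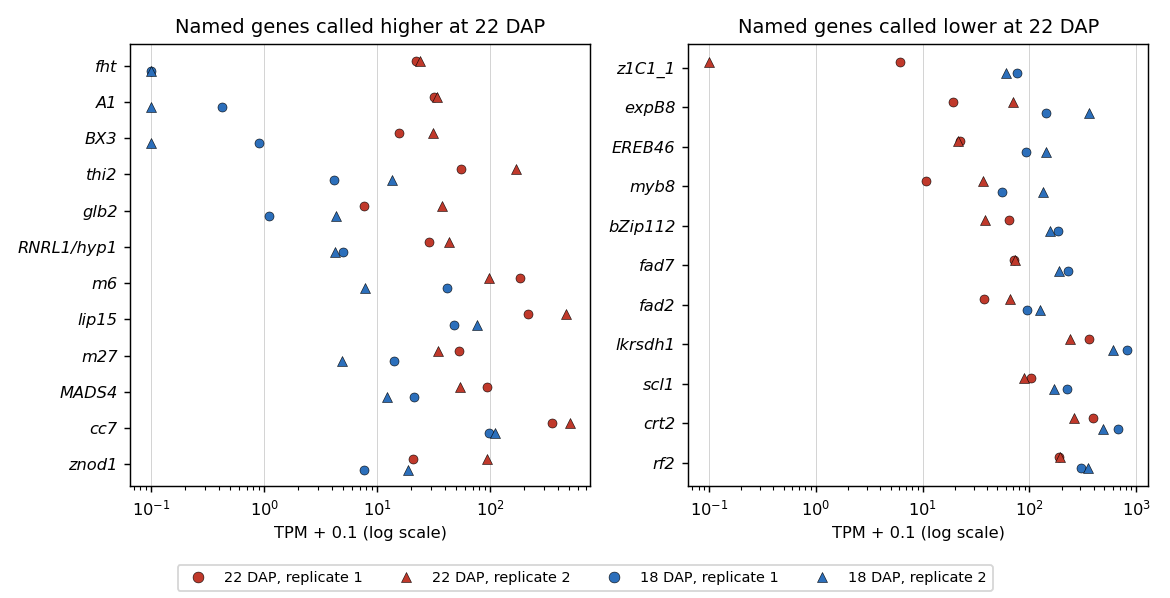
TPM (log scale, 0.1 added) of the named genes with the largest called changes in each of the 4 aleurone libraries; red is 22 DAP and blue 18 DAP, circles replicate 1 and triangles replicate 2. Only called genes whose ages do not overlap were chosen. By that choice both 22 DAP points lie right of both 18 DAP points in genes that rose, and left of them in genes that fell.

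In anthocyanin synthesis, 2 enzyme genes were at or near 0 at 18 DAP and present at 22 DAP. The gene fht (GRMZM2G062396), which encodes flavanone 3-hydroxylase, had 22.0 and 23.7 TPM at 22 DAP and was listed at 0 in both libraries at 18 DAP. With 353 counts against none it was at least 109-fold higher (against 3 counts over the group, adjusted p = 0.00218). The gene A1 (GRMZM2G026930), for dihydroflavonol reductase, the enzyme of a later step, had 31.4 and 33.7 TPM at 22 DAP, against 0.32 and 0 TPM at 18 DAP. Its ratio, from 404 counts at 22 DAP and 1 at 18 DAP, was 374, with an exact 95% interval of 66.8 to 14817 (adjusted p = 0.00184). Both genes were thus near or at 0 in both 18 DAP libraries and of like level in both 22 DAP libraries.

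The rest of the pathway did not pass. Of 16 anthocyanin genes found, 9 could be tested, 2 rose and none fell, 7 were higher in both replicate numbers, and the median log2 fold change was 0.77. Over all genes tested 0.771% rose, 29.8% were higher and 31.8% lower in both replicate numbers, and the median was -0.02. The sum of the 16 was 197 and 221 TPM at 22 DAP and 91.9 and 124 TPM at 18 DAP. The anthocyanidin synthase gene a2 (GRMZM6G474234) had 41.8 and 45.6 TPM at 22 DAP and 20.8 and 37.0 TPM at 18 DAP. The flavonoid glucosyltransferase gene bz had 4.83 and 7.90 TPM at 22 DAP and 0 and 2.07 TPM at 18 DAP. Chalcone synthase, the entry to the pathway, was nearly silent: c2 had 0.65 and 0 TPM at 22 DAP and 0.24 and 0.97 TPM at 18 DAP, and whp was at 0 in all 4 libraries. The Myb activator c1 was at 0 in all 4 libraries too, and the bHLH activator R-S had 0.85 and 1.12 TPM at 22 DAP and 0.24 and 0 TPM at 18 DAP. In the pathway before flavonoids, the phenylalanine ammonia-lyase gene pal3 had 24.2 and 88.5 TPM at 22 DAP and 7.67 and 32.2 TPM at 18 DAP and rose (log2 fold change 1.69, SE 0.24, adjusted p = 0.00976). Neither fht nor A1 had a count in starchy endosperm, and over the same libraries the pericarp markers had the higher sums at 22 DAP given above; their part was not tested.

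Of the gene lists, zeins held the most genes that rose. Of the 26 zein genes found and tested, 9 rose and 1 fell, 19 were higher in both replicate numbers, and their median log2 fold change was 0.36. Over all tested genes 0.771% rose, 0.75% fell and 29.8% were higher in both replicate numbers. Together the 26 zein genes reached 140981 and 147445 TPM at 22 DAP, against 117176 and 119848 TPM at 18 DAP. The differences were small next to those of other called genes. The most abundant, z1A1_3/z1A1_4 (GRMZM2G059620), an alpha-zein, had 30781 and 23793 TPM at 22 DAP and 25341 and 20748 TPM at 18 DAP, which overlap, though each replicate was higher at 22 DAP (log2 fold change 0.37, SE 0.05, adjusted p = 0.00936). The others that rose were z1A1_5, z1A1_7, z1B_8, z1C1_4, z1C1_7, z1C1_8, z1C1_12 and the 27 kDa gamma-zein gz27, at log2 fold changes between 0.35 (z1C1_4) and 0.98 (z1B_8).

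Some zein genes had their own pattern. The alpha-zein z1C1_12 (GRMZM2G088365) had 1566 and 1693 TPM in aleurone at 22 DAP, against 1031 and 1038 TPM at 18 DAP, and rose (log2 fold change 0.79, SE 0.11, adjusted p = 0.00955). In starchy endosperm, where most other zeins were higher, it had 116 and 121 TPM at 22 DAP and 403 and 465 TPM at 18 DAP. Its level was thus higher in aleurone at both ages, by 3.78 on the log2 scale at 22 DAP and 1.25 at 18 DAP, and so was that of z1C1_11, by 2.73 and 1.45. The gene z1C1_1 fell, at 6.07 and 0 TPM at 22 DAP and 75.7 and 59.8 TPM at 18 DAP (log2 fold change -5.10, SE 0.97, adjusted p = 0.0347). It is uncertain, since zein copies are nearly identical and RSEM's own posterior SD came to as much as 38.2% of its count in an aleurone library. Among other abundant IDs without a name, AF546188.1_FG005 had 17934 and 14659 TPM at 22 DAP and 11804 and 10873 TPM at 18 DAP and rose (log2 fold change 0.65, adjusted p = 0.00211), as did AF546188.1_FG007 (0.70, adjusted p = 0.00114).

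**Figure D4:**
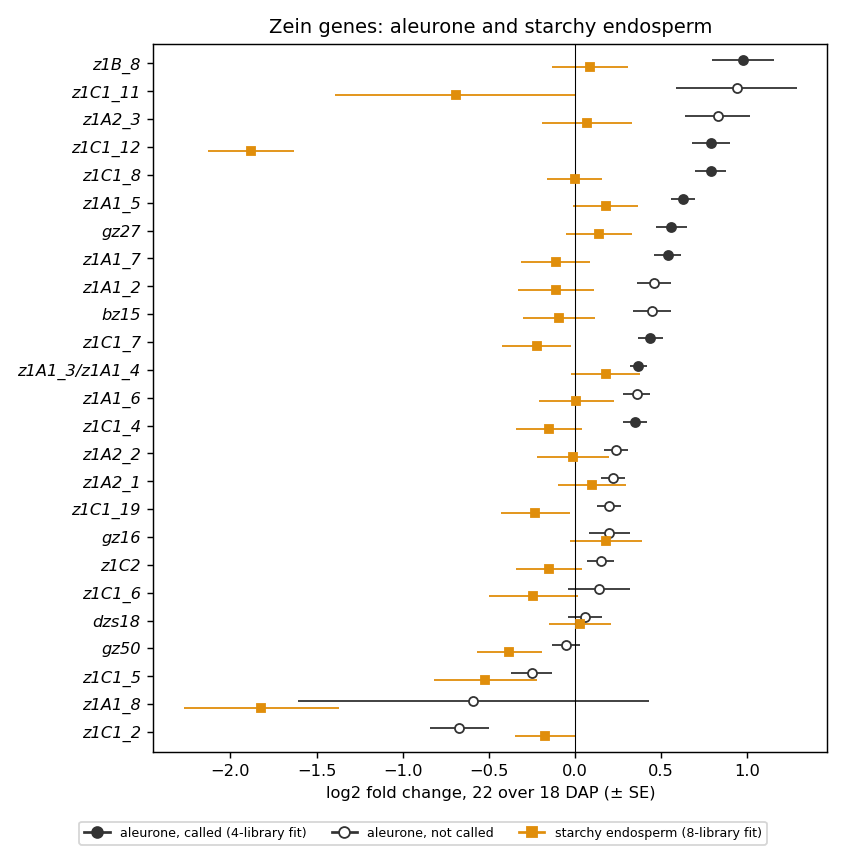
Log2 fold change with SE of 22 over 18 DAP for 25 zein genes, in aleurone (circles, from the fit of the 4 aleurone libraries, filled where called) and in starchy endosperm (squares, from the fit of 8 libraries); z1C1_1 is left out, at -5.10 in aleurone. Most circles lie right of 0 and z1C1_12 shows the widest gap between the tissues, with an aleurone value of 0.79.

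The other storage proteins of the seed followed the zeins in part. Of 4 storage globulin genes 2 rose and none fell, with a median log2 fold change of 0.82, while 0.771% of all tested genes rose. The globulin gene glb2 (GRMZM2G026703) had 7.51 and 37.2 TPM at 22 DAP and 1.00 and 4.21 TPM at 18 DAP, higher at 22 DAP in each replicate number (log2 fold change 3.19, SE 0.50, adjusted p = 0.015). The gene glb3 (GRMZM2G410134) had 224 and 1099 TPM at 22 DAP and 137 and 548 TPM at 18 DAP and rose by 1.00 (SE 0.15, adjusted p = 0.0116). Its mean was higher in starchy endosperm, at 1219 TPM at 22 DAP and 1244 TPM at 18 DAP, than in aleurone, at 661 and 342 TPM. Its replicates differed more than its ages, as in the most abundant globulin, glb1, which had 236 and 1268 TPM at 22 DAP and 469.6 and 1747 TPM at 18 DAP and did not pass. Both glb1 and glb2 are also embryo markers. The 6 embryo markers other than glb1, glb2 among them, summed to 11.9 and 43.2 TPM at 22 DAP and 3.37 and 13.5 TPM at 18 DAP. The parts of the embryo and of starchy endosperm were not tested.

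Oil storage did not separate the ages. None of the 6 oil body genes passed, and their sum was 5168 and 17496 TPM at 22 DAP and 5842 and 14177 TPM at 18 DAP, set by the replicate more than by the age. The oleosin ole1, a coat protein of oil bodies, had 2769 and 9497 TPM at 22 DAP and 2859 and 6368 TPM at 18 DAP. Enzymes that make and desaturate fatty acids went the other way in part: of 16 lipid synthesis genes 3 fell and none rose, with a median log2 fold change of -0.05. Over all tested genes 0.75% fell. The plastid desaturase gene fad7 had 71.6 and 72.5 TPM at 22 DAP and 228 and 189.9 TPM at 18 DAP (log2 fold change -1.21, SE 0.21, adjusted p = 0.0214). The desaturase gene fad2 (GRMZM2G064701) had 37.6 and 66.1 TPM at 22 DAP and 94.2 and 126 TPM at 18 DAP (-0.98, adjusted p = 0.0453). The acetyl-CoA carboxylase gene Acc-1, for the first step of fatty acid synthesis, had 127 and 52.9 TPM at 22 DAP and 209 and 107 TPM at 18 DAP (-0.74, adjusted p = 0.0189). The sum of the 16 genes was 2941 and 2452 TPM at 22 DAP, below 3758 and 3397 TPM at 18 DAP.

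The phospholipid transfer protein gene plt1 (GRMZM2G101958), the most abundant aleurone marker, had 6875 and 16977 TPM at 22 DAP and 14636 and 28034 TPM at 18 DAP. Its TPM overlapped between the ages, yet it was lower at 22 DAP within each replicate number and fell by 0.78 on the log2 scale (SE 0.09, adjusted p = 0.00296). It supplied most of the aleurone marker sum, and 10 of the 11 tested aleurone markers did not pass. Another very abundant gene, the ID GRMZM2G368861, had 4655 and 10068 TPM at 22 DAP and 9094 and 15272 TPM at 18 DAP and fell as well (-0.64, adjusted p = 0.0138). In the 8-library fit its direction turned without replicate 2 at 18 DAP (0.11) or replicate 1 at 22 DAP (0.10). The most abundant ID at 22 DAP, GRMZM5G892124, had 34126 and 34477 TPM at 22 DAP and 13824 and 11254 TPM at 18 DAP and was not called (adjusted p = 0.057), with a posterior SD of up to 51.2% of its count.

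The cystatin gene cc7 (GRMZM2G148925), whose product inhibits cysteine proteases, rose among the defence proteins and inhibitors. It had 349.9 and 503 TPM at 22 DAP, against 97.8 and 111 TPM at 18 DAP (log2 fold change 2.14, SE 0.17, adjusted p = 0.000311), and was also called by DESeq2 and limma-voom in the 8 libraries. The ribosome-inactivating protein gene rip had 149 and 313 TPM at 22 DAP and 95.3 and 139 TPM at 18 DAP (1.05, SE 0.21, adjusted p = 0.0386). Of 26 defence protein and inhibitor genes 17 could be tested, 2 rose and none fell, with a median of 0.21, while 0.771% of all tested genes rose. The most abundant inhibitor, sci1, a subtilisin-chymotrypsin inhibitor, had 2331 and 4186 TPM at 22 DAP and 4704 and 6750 TPM at 18 DAP and did not pass (adjusted p = 0.0935). The gene BX3, a cytochrome P450 of the benzoxazinoid defence pathway, had 15.6 and 30.9 TPM at 22 DAP and 0.8 and 0 TPM at 18 DAP, a ratio of 155 (exact 95% interval 42.6 to 1286, adjusted p = 0.0129).

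Of the hydrolases, 3 cysteine protease genes rose. The legumain-type protease gene see2b had 58.4 and 36.6 TPM at 22 DAP and 17.1 and 16.1 TPM at 18 DAP (log2 fold change 1.60, SE 0.30, adjusted p = 0.0316). The gene mir3 had 26.2 and 35.3 TPM at 22 DAP and 8.69 and 9.99 TPM at 18 DAP (1.84, SE 0.33, adjusted p = 0.0246), and ccp1 had 219.6 and 186 TPM at 22 DAP and 102 and 108 TPM at 18 DAP (1.08, SE 0.18, adjusted p = 0.0173). All 3 were higher in both 22 DAP libraries than in either 18 DAP library, as were 11.4% of all tested genes. These 3 protease genes were the only ones to pass among 17 tested of 22 hydrolases, the list of amylases, proteases and nucleases, whose median was 0.17. Over all tested genes 0.771% rose. In the senescence and autophagy list see2b was the 1 gene of 18 to pass, and without replicate 2 at 22 DAP its 8-library estimate turned to -1.22. That fit shares its replicate block with starchy endosperm, where see2b had at most 1.14 TPM. Its aleurone log2 changes within replicates 1 and 2 were 1.82 and 1.33.

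In the abscisic acid list 1 gene passed. The gene vp14 (GRMZM2G014392), which encodes the dioxygenase of the committed step of abscisic acid synthesis, had 7.99 and 20.7 TPM at 22 DAP and 1.26 and 1.78 TPM at 18 DAP and rose (log2 fold change 3.30, SE 0.52, adjusted p = 0.015). It was the 1 called of 45 tested abscisic acid genes (55 found, median 0.07), a share near the 1.52% called over all genes, and also the 1 called of 19 carotenoid and plastid isoprenoid genes. The transcription factor vp1, through which abscisic acid acts in maturing seed, had 23.5 and 61.9 TPM at 22 DAP and 34.1 and 47.7 TPM at 18 DAP, which overlap. Of 10 late embryogenesis abundant and dehydrin genes aba1 rose, at 21.6 and 55.7 TPM at 22 DAP and 6.44 and 14.8 TPM at 18 DAP (1.98, SE 0.41, adjusted p = 0.0463), while the sum of the 10 was 662 and 1814 TPM at 22 DAP and 976 and 2330 TPM at 18 DAP. Its largest member, per-1, a seed peroxiredoxin, had 408 and 1495 TPM at 22 DAP and 700 and 1969 TPM at 18 DAP and did not pass.

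In gibberellin synthesis, an1 (GRMZM2G081554), for ent-copalyl diphosphate synthase at the start of the pathway, fell. It had 140.4 and 18.7 TPM at 22 DAP and 279.7 and 89.5 TPM at 18 DAP (log2 fold change -1.61, SE 0.27, adjusted p = 0.0196), lower at 22 DAP within each replicate number though the ages overlapped. None of the other 4 tested gibberellin genes passed, and 3 of them were higher in both replicate numbers, against 29.8% of all tested genes. DWARF8, a DELLA repressor of gibberellin response, had 1.84 and 11.4 TPM at 22 DAP and 1.22 and 4.95 TPM at 18 DAP, and its relative d9 had 1.40 and 11.3 TPM at 22 DAP and 0.34 and 2.96 TPM at 18 DAP. The median of the 5 was 1.13, above 0, while their summed TPM, in which an1 was the largest part in every library, was lower at 22 DAP. In the auxin list 1 of 37 tested genes was called, a share like that over all genes (1.52%), and without a test 1 gene was at least 2-fold higher and 3 lower in both replicate numbers. The called gene was TAR3, named as a tryptophan aminotransferase of auxin synthesis, which had 211 and 440.1 TPM at 22 DAP and 144 and 161 TPM at 18 DAP and rose (1.14, SE 0.21, adjusted p = 0.0321). In the cytokinin list 1 of 21 was called: HP1, a histidine phosphotransfer protein that relays the cytokinin signal, had 513 and 357 TPM at 22 DAP and 258 and 192 TPM at 18 DAP (1.07, SE 0.16, adjusted p = 0.0115). Without replicate 2 at 22 DAP the 8-library estimate for HP1 turned to -0.58. That fit shares its replicate block with starchy endosperm, where HP1 had at most 4.33 TPM. Within replicates 1 and 2 the aleurone log2 changes of HP1 were 1.07 and 1.06. No gene passed among 31 jasmonate and lipoxygenase genes or 5 ethylene genes tested.

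The classical regulators of aleurone identity described here were present at both ages and none passed. The genes thk1, rea1 and pbf1 were also looked for and were not found by name. The paired zinc finger genes of the naked endosperm type came nearest. IDDveg9 (GRMZM2G129261) had 101 and 156 TPM at 22 DAP and 73.7 and 74.9 TPM at 18 DAP (log2 fold change 0.91, SE 0.20, adjusted p = 0.0584), and IDD9 (GRMZM5G884137) had 49.4 and 63.6 TPM at 22 DAP and 37.2 and 32.4 TPM at 18 DAP. Both were higher in each 22 DAP library than in either 18 DAP library, without passing. Of all tested genes 11.4% were likewise higher without overlap. The endosomal sorting gene Sal1 had 59.9 and 125 TPM at 22 DAP and 52.5 and 80.9 TPM at 18 DAP. The calpain gene dek1, needed to make aleurone at all, had 36.9 and 7.83 TPM at 22 DAP and 50.1 and 32.1 TPM at 18 DAP, and the receptor kinase gene cr4 had 8.30 and 4.26 TPM at 22 DAP and 11.7 and 9.02 TPM at 18 DAP. The epidermal homeodomain gene ocl1 had 23.9 and 37.9 TPM at 22 DAP and 21.1 and 43.1 TPM at 18 DAP. None of 7 regulators of endosperm filling passed, and o2, the bZIP activator of zein genes, had 66.6 and 107 TPM at 22 DAP and 77.1 and 90.4 TPM at 18 DAP.

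Other transcription factors did pass. The bZIP gene lip15 (GRMZM2G448607), first known as a gene induced by low temperature, had 216 and 469 TPM at 22 DAP and 47.3 and 76.9 TPM at 18 DAP and rose by 2.55 (SE 0.19, adjusted p = 0.000294), and DESeq2 and limma-voom called it in the 8 libraries too. A gene of another bZIP, bZip112, had 63.8 and 38.2 TPM at 22 DAP and 186 and 156 TPM at 18 DAP and fell (-1.55, SE 0.21, adjusted p = 0.00634). The ethylene response factor family gene EREB46 had 22.1 and 21.4 TPM at 22 DAP and 92.9 and 143 TPM at 18 DAP and fell by 2.29 (SE 0.25, adjusted p = 0.00261). The Myb gene myb8 had 10.7 and 36.9 TPM at 22 DAP and 55.3 and 133 TPM at 18 DAP and fell by 1.93 (SE 0.32, adjusted p = 0.0189). All 4 were named under the rule that takes only genes whose ages do not overlap. In starchy endosperm lip15 had 76 and 249 TPM at 22 DAP and 27.1 and 59.2 TPM at 18 DAP. There bZip112 had 8.54 and 12.5 TPM at 22 DAP and 31 and 24.3 TPM at 18 DAP. Both thus moved in the same direction in that tissue, without passing (log2 fold changes 1.75 and -1.57 in the 8-library fit).

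Of the MADS-box genes, best known as regulators of flower organs, 3 were among the named genes that rose. The gene m6 (GRMZM2G159397) had 185 and 97.6 TPM at 22 DAP and 41.3 and 7.68 TPM at 18 DAP (log2 fold change 3.03, SE 0.37, adjusted p = 0.00406). The gene MADS4 had 94.2 and 53.4 TPM at 22 DAP and 20.9 and 12.2 TPM at 18 DAP (2.49, SE 0.36, adjusted p = 0.01), and m27 had 52.3 and 34.1 TPM at 22 DAP and 14.0 and 4.79 TPM at 18 DAP (2.49, SE 0.40, adjusted p = 0.0163). None had more than 0.5 TPM in a starchy endosperm library. The MADS-box genes of the pericarp and maternal marker list moved with them without passing: zag2, for one, had 33.0 and 24.4 TPM at 22 DAP and 8.13 and 13.4 TPM at 18 DAP, and MADS37 had 23.5 and 15.2 TPM at 22 DAP and 9.87 and 2.81 TPM at 18 DAP. The part of pericarp in these peels was not tested.

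Of 36 tested cytosolic ribosomal protein genes 30 were higher and 1 lower at 22 DAP in both replicate numbers, against 5681 and 6065 of all 19058 genes, with a median log2 fold change of 0.39. Only RP-P0 passed among them, at 389 and 588 TPM at 22 DAP and 249 and 325 TPM at 18 DAP (0.88, SE 0.15, adjusted p = 0.0186). The 37 genes summed to 8196 and 8137 TPM at 22 DAP and 6728 and 6580 TPM at 18 DAP, close within each age. Of 49 tested histone, tubulin and cell cycle genes 2 rose and none fell, against 0.771% and 0.75% of all tested genes. Of the 49, 32 were higher and 6 lower in both replicate numbers, and the median was 0.38. Their sum over 53 genes did not separate the ages, at 2283 and 4300 TPM at 22 DAP and 2333 and 3899 TPM at 18 DAP. The histone gene his2a1 had 209 and 429 TPM at 22 DAP and 119 and 181 TPM at 18 DAP (1.23, SE 0.20, adjusted p = 0.0173). The other, RNRL1/hyp1 (GRMZM2G304378), is an ID that the reference table pairs with more than one gene, among them the large subunit of ribonucleotide reductase, and had 28.4 and 42.9 TPM at 22 DAP and 4.84 and 4.17 TPM at 18 DAP (3.12, SE 0.41, adjusted p = 0.00579).

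**Figure D5:**
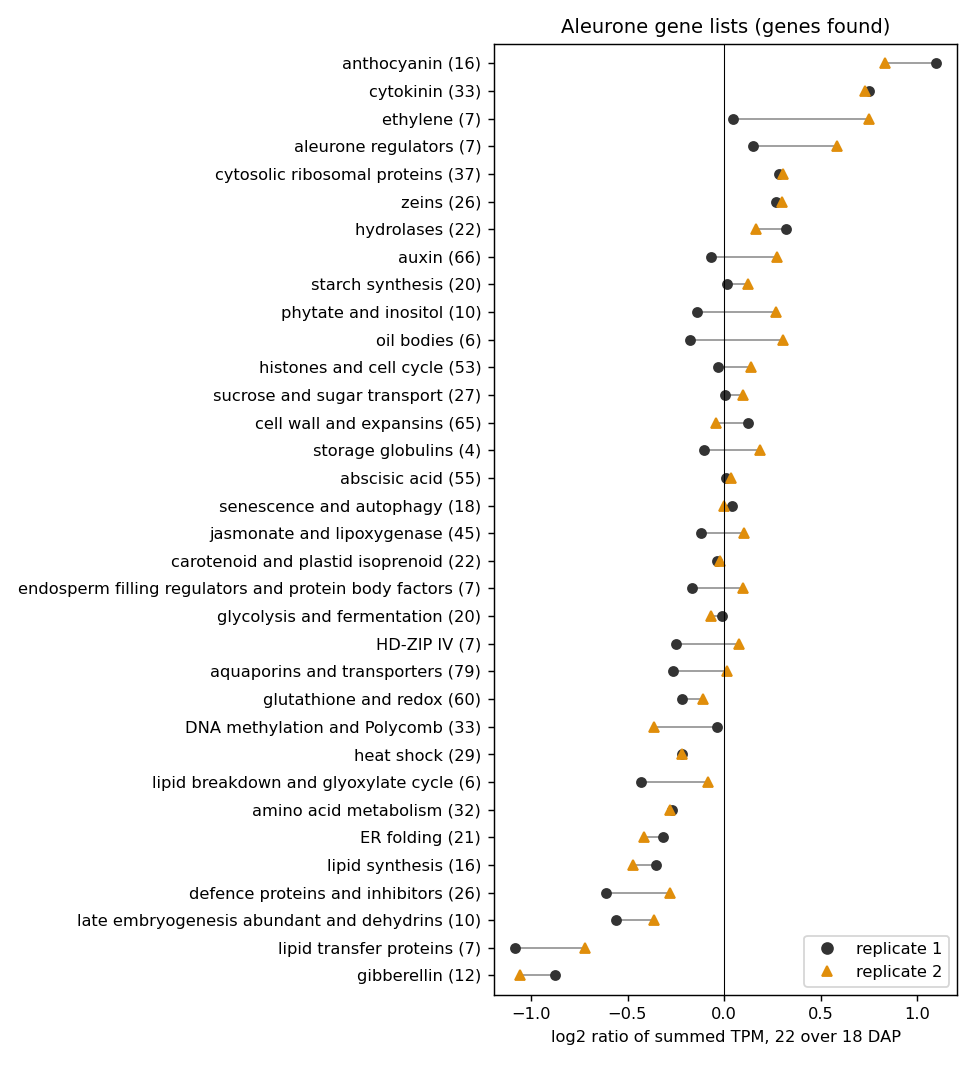
Log2 ratio of the summed TPM of each gene list, 22 over 18 DAP in aleurone, with the number of genes found in brackets; circles are replicate 1, triangles replicate 2, and a line joins the 2. The photosynthesis list is left out; anthocyanin and cytokinin lie right of 0 and gibberellin and lipid transfer proteins left of it in both replicates, while oil bodies lie on both sides. A single gene gave a large part of some sums. At 22 DAP plt1 gave 6875 and 16977 of 6919 and 17039 TPM of lipid transfer proteins (replicates 1 and 2). HP1 gave 513 and 357 of 671 and 530 TPM of cytokinin, and an1 140.4 and 18.7 of 159.7 and 52.4 TPM of gibberellin. No list sum was tested.

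Metabolic genes that fell included lkrsdh1 (GRMZM2G181362), the bifunctional enzyme that breaks down lysine. It had 358 and 238 TPM at 22 DAP and 824 and 605 TPM at 18 DAP (log2 fold change -0.90, SE 0.12, adjusted p = 0.00703). The glutamine synthetase gene gln5 had 31.7 and 96.8 TPM at 22 DAP and 93.4 and 198 TPM at 18 DAP (-1.15, SE 0.21, adjusted p = 0.0308), and without replicate 2 at 18 DAP its 8-library estimate turned to 0.72. These 2 were the calls among 29 tested genes of amino acid metabolism, while 0.75% of all tested genes fell. In starchy endosperm lkrsdh1 was lower at 22 DAP too, at 16 and 12.3 TPM against 59.2 and 38.6 TPM at 18 DAP. Its log2 fold change there was -2.16 in the 8-library fit (SE 0.27, adjusted p = 0.359). The gene gln5 had at most 0.71 TPM there, and its aleurone log2 changes within replicates 1 and 2 were -1.44 and -0.88. The chaperone gene crt2, a calreticulin of the endoplasmic reticulum, had 393 and 259 TPM at 22 DAP and 674 and 484 TPM at 18 DAP (-0.71, SE 0.12, adjusted p = 0.0228), as the 1 call among 21 genes of protein folding in that compartment. The aldehyde dehydrogenase gene rf2 had 187 and 192 TPM at 22 DAP and 306 and 353 TPM at 18 DAP (-0.66, adjusted p = 0.0438).

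Cell wall expansins went both ways. The beta-expansin gene expB8 (GRMZM2G013002) showed the largest fall among named genes other than z1C1_1, with 19.2 and 70.4 TPM at 22 DAP and 144 and 360.4 TPM at 18 DAP (log2 fold change -2.80, SE 0.21, adjusted p = 0.000294). Its relative expB3 had 80.1 and 94.8 TPM at 22 DAP and 30.6 and 50.3 TPM at 18 DAP and rose (1.27, SE 0.25, adjusted p = 0.0397). They were the 2 calls among 35 tested cell wall genes, whose median was -0.04, against 1.52% called over all tested genes. In both expansin genes the ages did not overlap. Over all tested genes 11.4% were higher and 18.5% lower without overlap.

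Further named genes that rose had roles in isoprenoids, vitamins and oxygen stress. The gene thi2 (GRMZM2G074097), an enzyme of thiamine synthesis, had 55.4 and 170.0 TPM at 22 DAP and 4.08 and 13.3 TPM at 18 DAP (log2 fold change 3.84, SE 0.27, adjusted p = 0.000194). The farnesyl diphosphate synthase gene fps had 453 and 262 TPM at 22 DAP and 207 and 128 TPM at 18 DAP (1.29, SE 0.15, adjusted p = 0.00346). The superoxide dismutase gene sod9 had 209 and 273 TPM at 22 DAP and 102 and 89.3 TPM at 18 DAP (1.27, SE 0.21, adjusted p = 0.0196), the 1 call among 41 tested genes of glutathione and redox metabolism. The NAC family gene nac4 and znod1 rose too, nac4 at 212 and 195 TPM at 22 DAP and 103 and 112 TPM at 18 DAP (1.05, adjusted p = 0.0178) and znod1 at 20.7 and 93.7 TPM at 22 DAP and 7.5 and 18.7 TPM at 18 DAP (2.10, adjusted p = 0.0173). Both fps and nac4 were higher in starchy endosperm than in aleurone. Their means there were 628 and 839.5 TPM for fps at 22 and 18 DAP, and 395 and 430.4 TPM for nac4. The ferritin gene fer1, for iron storage, had 113 and 128 TPM at 22 DAP and 68.0 and 56.4 TPM at 18 DAP and rose (1.09, adjusted p = 0.0361). Among IDs without a name, GRMZM2G061303 was listed at 0 in both 22 DAP libraries, against 40.9 and 73.1 TPM at 18 DAP, at least 361-fold lower (adjusted p = 0.000165). In the other direction GRMZM5G836174 had 43.8 and 92.3 TPM at 22 DAP and 0.98 and 0 TPM at 18 DAP, a ratio of 826 (exact 95% interval 148 to 32671, adjusted p = 0.000552). The ID GRMZM2G069146 had 16.6 and 46.4 TPM at 22 DAP and was listed at 0 at 18 DAP, at least 68.9-fold higher (adjusted p = 0.013).

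With 1.52% called over all genes, a short list without a call is near that background, and many lists held none. None passed among 20 starch synthesis genes, whose sum was 3835 and 4251 TPM at 22 DAP and 3796 and 3906 TPM at 18 DAP. None passed either among 20 genes of glycolysis and fermentation, 19 of sucrose and sugar transport, 8 of phytate and inositol, 6 of lipid breakdown, 23 of heat shock, 43 transporters and aquaporins, 31 of DNA methylation and Polycomb, 5 outer cell layer homeodomain genes and 3 of photosynthesis. A gene that did not pass is not shown to be unchanged, since 2 libraries a side leave wide intervals.

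Whether a change with age differed from that in starchy endosperm was tested directly. No gene passed in the edgeR fit of 8 libraries (0%), where 489 had an unadjusted p under 0.05, while DESeq2 called 8 and limma-voom 3. Nothing is therefore shown to be particular to the aleurone. Of the called genes, 56 of the 147 that rose and 60 of the 143 that fell stayed under 1 TPM in every starchy endosperm library, as did 22.2% of all tested genes. Of the 59 that rose and had at least 10 counts in every starchy endosperm library, 16 were also higher and 14 lower there at 22 DAP in both replicate numbers. Of the 30 such genes that fell, 16 were also lower and 5 higher there. Of all 5922 tested genes with that many counts there, 23.1% were higher and 33% lower at 22 DAP in both replicate numbers.

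The main transcript of each gene was also compared between the libraries from the deposited transcript estimates, without a test. Of 3088 genes with 2 or more transcripts and at least 20 TPM in each aleurone library, 1922 (62.2%) had the same main transcript in all 4 libraries. In 61 (1.98%) the main transcript was shared within each age and differed between the ages, in 50 of them (1.62%) also by the posterior mean. In 241 (7.8%) it was shared within each replicate number and differed between the numbers, so changes with age were fewer than changes with replicate. In drh1 (GRMZM2G362850), named as a DEAD-box RNA helicase, transcript T01 made up 86.3% and 92.4% of the gene's transcripts at 22 DAP and 17.8% and 0% at 18 DAP. The gene itself had 90.5 and 43.4 TPM at 22 DAP and 90.7 and 45.5 TPM at 18 DAP, so its total hardly moved. In sh2, the large subunit of ADP-glucose pyrophosphorylase in starch synthesis, T01 made up 56.9% and 86.0% at 22 DAP and 29.6% and 24.6% at 18 DAP. In SnRK2.7, a protein kinase of the family that carries abscisic acid signals, T02 made up 68.5% and 88.1% at 22 DAP and 19.9% and 27.9% at 18 DAP. These genes were chosen after their values were seen and their shares were not tested.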

How the data were processed

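RNA-seq of 4 aleurone libraries (22 and 18 DAP, 2 each) was analysed, with 4 starchy endosperm libraries in the wider fit. Per the submitters' processing notes, FastQC, Bowtie2 2.2.3, SAMtools and RSEM 1.2.15 were used with the build B73 RefGen_v3; which annotation was used, and whether reads were counted by strand, is not given in the sources used here. The authors' files hold, per the file headers, expected counts from RSEM, TPM, the percent of a gene's transcripts given by each transcript, and posterior SDs of the counts, which measure how surely reads could be placed.

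Expected counts were rounded, filtered by filterByExpr (19058 genes left), scaled with TMM factors (edgeR's trimmed mean method) and fitted with edgeR 4.0.16 (quasi-likelihood, R 4.3.3), with the replicate number as a block. The main fit took all 8 libraries (prior and residual degrees of freedom 3.49 and 3); the planned fit of the 4 aleurone libraries alone had 8.811 and 1. A gene was called where its p, adjusted by Benjamini-Hochberg over all tested genes, was under 0.05. SEs come from the F statistic. Alternatives included limma 3.58.1 (voom), DESeq2 1.42.0, other scalings and filters, and leaving out each library. An exact permutation test of 2 libraries against 2 cannot go below p = 0.333, so sums are given without a test.

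Of 39475 gene IDs 18908 (47.9%) were found in a table from RefSeq (assembly Zm-B73-REFERENCE-NAM-5.0), which gave 2564 names and no coordinates; 521 IDs were paired with more than one reference gene. The gene lists and the comparison were chosen with earlier results of these data known, and thi2 was taken out of the defence list because its name stands for a thiamine gene. Genes were named by a rule: up to 12 called genes a direction with the largest change, a name, ages that do not overlap and at least 20 TPM on average at the higher age; up to 2 unnamed IDs; up to 4 members of each list by p with at least 5 TPM; classical regulators; and the 6 most abundant genes of each age. As the main fit called none, the rule was extended to the aleurone fit after that was seen, with the other named genes and list members called there, and genes shown for a whole list. Folds of genes without counts at one age are lower bounds against 3 counts over the group; intervals and bounds cover counting error only.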

Additional observations from a re-analysis of the deposited data

Results flagged for a closer look

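In 8 of the genes named above, aleurone and starchy endosperm moved in opposite directions with age in both replicate numbers. Only part of the named genes was searched, those with a minimum count in aleurone and at least 10 counts in every starchy endosperm library. The share of all tested genes that did so was not computed, so the count of 8 is a description. In replicate 1 of starchy endosperm the log2 change was only -0.00 for z1C1_4 and -0.06 for z1C1_7 and TAR3. The level of plt1 there was 13.2 to 23.4 TPM. The difference of the 2 changes (aleurone minus starchy endosperm, log2) was 3.27 for cc7, 2.67 for z1C1_12, 1.73 for fps, 1.43 for TAR3, 0.66 for z1C1_7 and 0.50 for z1C1_4. It was -2.43 for an1 and -1.42 for plt1. None passed the interaction test of edgeR (adjusted p = 1 for each), with unadjusted p-values of 7.76e-05 for cc7, 0.000158 for z1C1_12, 0.000547 for fps, 0.00431 for an1, 0.0107 for TAR3, 0.0562 for z1C1_7, 0.105 for plt1 and 0.115 for z1C1_4. In cc7 the log2 change was 1.92 and 2.33 in aleurone and -1.28 and -1.04 in starchy endosperm. In z1C1_12 it was 0.70 and 0.87 in aleurone and -1.65 and -2.14 in starchy endosperm.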

How the results depend on the processing

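With the replicate block, the 8-library count was 0; without it, 0 as well (196 genes at an unadjusted p under 0.05). The 4-library fit gave 290 calls, 294 with TMM over those libraries, 282 without the storage genes of starchy endosperm, 523 with limma-voom, 1174 with DESeq2, and 0 without the replicate block. In the 8 libraries DESeq2 gave 9 and limma-voom 35, and a block within each tissue 0. Leaving out 1 library at a time gave 0 to 2 calls (2 without aleurone 22 DAP replicate 1); no such fit of the 4 aleurone libraries was possible, with no residual degrees of freedom. All 290 kept their direction in every 8-library fit with all aleurone libraries that tested them, and 278 to 289 with 1 aleurone library left out. Those fits use the aleurone counts that gave the calls, so the kept direction is a description and no independent support. For the difference between tissues, DESeq2 gave 8 and limma-voom 3, and leaving out 1 library 0 to 2813 (2813 without starchy endosperm 22 DAP replicate 1, which leaves the library with 9335 genes alone). The labels do not say that replicate numbers pair plants. Replicate differences correlated across genes between the ages (Pearson r = 0.425, and 0.194 to 0.425 over all 6 pairs of groups), which meets the rule used here for a block.

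In TMM-scaled CPM the log2 ratio of summed levels (22 over 18 DAP) was 0.41 for zeins (0.28 in TPM), 0.21 for starch synthesis (0.07), 0.43 for ribosomal proteins (0.30) and 1.38 for anthocyanin (0.97). The direction of vp1 turned with limma-voom in 4 libraries (0.02) and without replicate 1 at 18 DAP (0.14) or at 22 DAP (0.22, range -0.65 to 0.22). With 1 library left out, log2 fold changes in the 8-library fit also crossed 0 for cr4 (-1.31 to 0.23), dek1 (-1.54 to 0.07), gln5 (-3.03 to 0.72), HP1 (-0.58 to 2.73), see2b (-1.22 to 4.47), o2 (-0.09 to 0.36), ocl1 (-0.03 to 0.32), GRMZM2G052869 (-0.08 to 0.34) and GRMZM2G368861 (-1.57 to 0.11). The causes were not tested.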
